A study of Mus musculus with 15 samples.

Results

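Fibrillar collagens are the proteins that form the banded fibers of connective tissue. Each is made as a procollagen of 3 chains wound into a triple helix, trimmed of its end peptides outside the cell, packed into fibrils and cross-linked by lysyl oxidases. Type I and type III collagen make up most of the fiber mass of a scar in kidney and lung, type V (and type XI in cartilage) sits in the fibril core and sets fibril number and width, type II is the main fibril collagen of cartilage, and types XXIV and XXVII are family members with a shorter, interrupted helix.

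The 10 fibrillar collagen genes were taken by name (Col1a1, Col1a2, Col2a1, Col3a1, Col5a1, Col5a2, Col5a3, Col11a1, Col24a1 and Col27a1) from a table of 56748 genes, and all 10 were present. The samples were 15 polyadenylated RNA libraries from whole kidney or lung of wild-type male C57Bl/6 mice, 3 per group. Kidneys came from mice given vehicle (WTK, no antibody named), from mice given folic acid with control immunoglobulin G (IgGK), or from mice given folic acid with a leptin-neutralizing antibody, LepAb (LepK). Lungs came from mice given bleomycin with control IgG (IgGL) or with LepAb (LepL). Per the study's methods, kidney mice were 10 to 12 weeks old, received a single intraperitoneal dose of folic acid of 200 mg/kg, were given antibody for 21 days from day 1 and were euthanized at day 28. Lung mice were 12 weeks old, received a single intratracheal dose of bleomycin of 1.5 units/kg, were given antibody for 14 days from day 1 and were euthanized at day 14. The antibody dose was 10 mg/kg, and uninjured lung is not analysed here. The study describes the lung libraries as coming from 3 mice per group. For kidney, neither the labels nor the study's text says that each library is a separate animal, so p-values there measure only the spread between these samples.

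Library totals ran from 25913969 to 38924788 counts, and all libraries carry a single batch label. The tissue labels matched their markers. All 8 proximal tubule markers were counted in each kidney group, where their summed level ran from 11435 to 49045 CPM (counts scaled to the TMM-normalized library size, with TMM factors set within each organ), against 30.8 to 159 CPM in lung. All 7 alveolar type 2 markers were counted in both lung groups, where their summed level ran from 7285 to 25862 CPM, against 241 to 546 CPM in kidney. Of these, surfactant gene Sftpa1 had no count in any kidney group, and Sftpc had none in WTK and LepK. Because the libraries are whole tissue, fewer cells of a type and less RNA per cell cannot be told apart in any value below.

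The genes lie on 8 chromosomes (GRCm39, as the table gives them). The type I chains are encoded by Col1a1 (chr11:94827050-94843868, plus strand) and Col1a2 (chr6:4504814-4541544, plus). Col3a1 (chr1:45350698-45388866, plus) and Col5a2 (chr1:45413481-45542442, minus) are neighbours that end toward each other with 24.6 kb and no other listed gene between them. The remaining type V chains are Col5a1 (chr2:27776437-27929526, plus) and Col5a3 (chr9:20681346-20726363, minus). Col11a1 (chr3:113824189-114014367, plus) and Col24a1 (chr3:144998233-145257766, plus) share a chromosome, and Col2a1 (chr15:97873483-97902576, minus) and Col27a1 (chr4:63132241-63253228, plus) stand alone. The library kit kept no strand, so reads of a gene and of an overlapping antisense gene could not be separated, but the overlapping genes drew few counts. The largest was Gm13372, an antisense long noncoding RNA within Col5a1, with 252 counts over all libraries beside 76146 for Col5a1. Col27a1 holds the microRNA gene Mir455 on the same strand, with 10 counts beside 50588.

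Col1a2, Col3a1 and Col5a1 were called lower with LepAb in both organs, Col5a3 in lung but not kidney and Col27a1 in neither, so stretches of 120 bases upstream of these 5 genes are shown. They are RefSeq promoter sequence (GRCm38.p6, a different build from the coordinates above), read 5′ to 3′ on the strand of the gene, just before the RefSeq start (for Col1a2, farther upstream so that no annotated exon is included). They span chr6:4505373-4505492 for Col1a2, chr1:45311418-45311537 for Col3a1, chr2:27886305-27886424 for Col5a1, chr9:20815068-20815187 for Col5a3 and chr4:63215292-63215411 for Col27a1. Capitals mark any match, on either strand, to 4 motifs: the letters CCAAT of the box of that name, the GC box with the letters GGGCGG, the TATA motif with the letters TATAA, and the core SMAD motif with the letters CAGAC. In Col3a1 the TATA matches on the 2 strands overlap.
Col1a2: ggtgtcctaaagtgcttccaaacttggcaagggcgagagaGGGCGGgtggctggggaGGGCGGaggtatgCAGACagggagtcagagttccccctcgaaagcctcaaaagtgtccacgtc
Col3a1: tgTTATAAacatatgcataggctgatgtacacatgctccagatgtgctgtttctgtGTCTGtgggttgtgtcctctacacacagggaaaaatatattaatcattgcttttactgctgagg
Col5a1: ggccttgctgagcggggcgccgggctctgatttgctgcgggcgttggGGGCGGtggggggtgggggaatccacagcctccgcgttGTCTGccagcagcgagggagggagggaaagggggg
Col5a3: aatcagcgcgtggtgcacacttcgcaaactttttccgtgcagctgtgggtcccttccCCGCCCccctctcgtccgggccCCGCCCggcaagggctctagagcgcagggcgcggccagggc
Col27a1: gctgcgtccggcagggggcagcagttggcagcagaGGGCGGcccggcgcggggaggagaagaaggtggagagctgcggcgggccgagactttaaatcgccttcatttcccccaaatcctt
The promoter table held 7 of the 10 genes (not Col1a1, Col2a1 or Col5a2). Over the 250 bases before the start, a GC box was found in 5 of the 7, against 32.7% of 32851 promoters, and a core SMAD motif in 5 of the 7, against 42.2%. A CCAAT box was found in 3 (33.8% of all promoters) and a TATA motif in 1 (22.8%). Col3a1 was the member with the TATA motif and had no GC box, while Col1a2, Col5a1, Col5a3, Col11a1 and Col27a1 each held a GC box. These are matches of letters and were not tested for use.

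In the vehicle kidney the family was led by an unusual member. FPKM are fragments per kilobase of gene length scaled to library size, so that levels of different genes can be set side by side. The length is that of each gene model (12426 bases for Col1a2 and 6563 for Col1a1). Order, shares and ratios between genes depend on these lengths. On this scale Col27a1 stood at 13.7, 17.1 and 16.6 in the 3 WTK libraries. The next gene in order, Col1a2, stood at 3.29, 3.20 and 3.53, so the libraries of these 2 genes were far apart. Col1a1 (2.92 ± 0.664, SD, n = 3), Col3a1 (2.47 ± 0.522), Col5a3 (1.77 ± 0.194) and Col5a2 (1.65 ± 0.0758) followed in mean FPKM. Col1a2 and Col1a1 overlapped in level, as did Col1a1 and Col3a1 and also Col5a3 and Col5a2, and Col5a1 stood below both at 1.12 ± 0.0486. Col24a1 (0.137 ± 0.0229), Col2a1 (0.0143 ± 0.0188) and Col11a1 (0.0109 ± 0.00642) were low, with overlapping levels of the last pair.

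This order was turned around in IgGK, and the comparison with WTK gives the size of the difference in the kidney. Folic acid and control IgG cannot be told apart in it, since no antibody is named for WTK. Col1a1, the chain present as a pair in each type I molecule, stood at 41.9, 47.0 and 37.0 FPKM in IgGK against 2.52, 2.55 and 3.68 in WTK. Col1a2, the partner chain, stood at 26.6, 27.8 and 25.1 FPKM in IgGK. Col3a1, the single chain of type III collagen, stood at 35.0, 38.9 and 34.8 FPKM in IgGK against 2.38, 2.0 and 3.03 in WTK. Every IgGK library was above every WTK library for all 3 genes. On the count scale, edgeR's quasi-likelihood test gave a rise of 14.7-fold for Col1a1 (log2 fold change 3.88 ± 0.23 SE, adjusted p = 7.86e-08), 8.13-fold for Col1a2 (3.02 ± 0.17, adjusted p = 6.16e-08) and 15-fold for Col3a1 (3.91 ± 0.21, adjusted p = 4.12e-08).

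**Figure D1:**
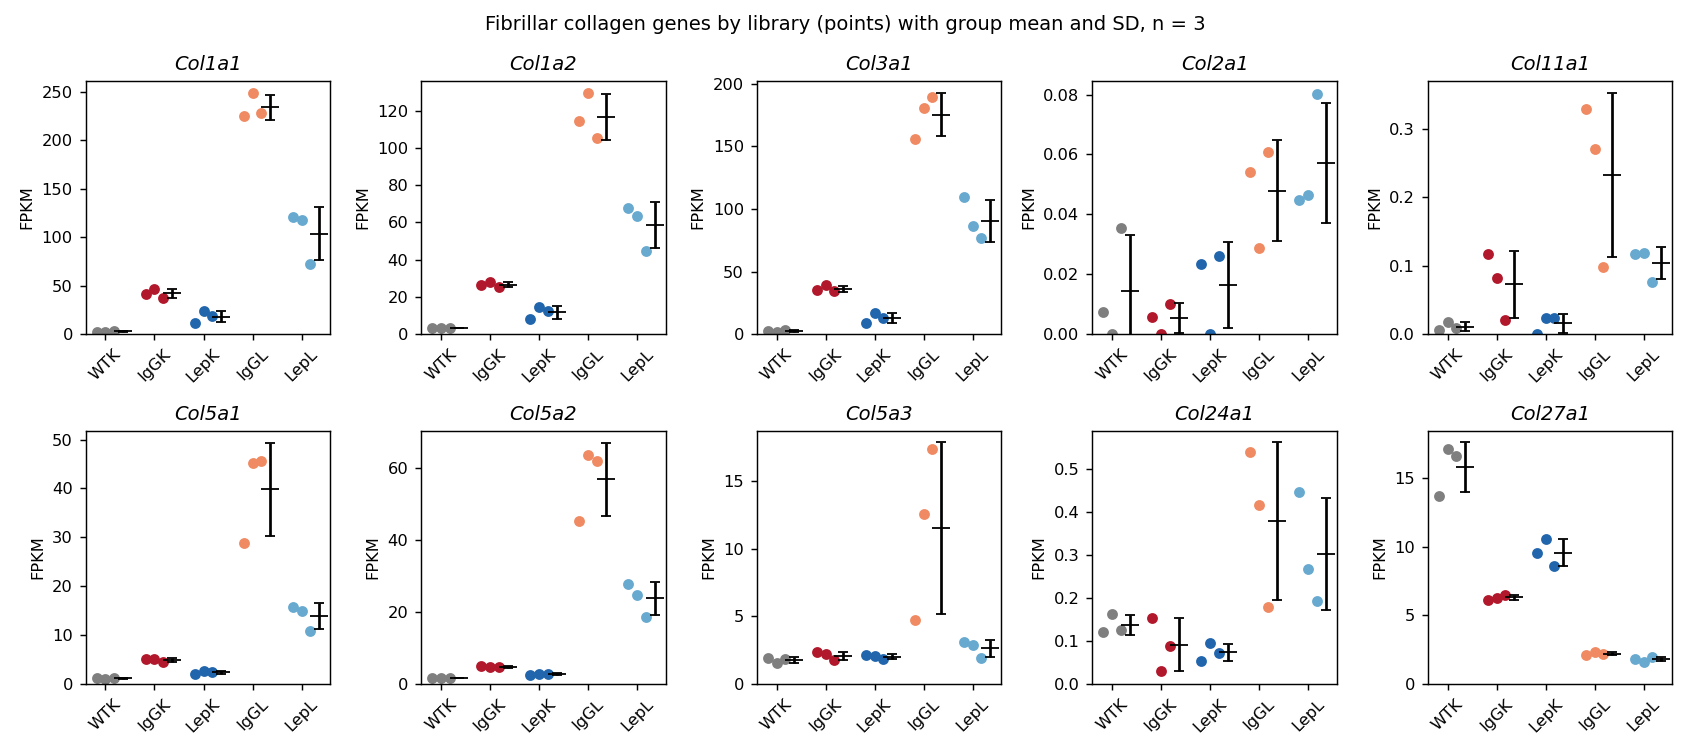
Level of each of the 10 fibrillar collagen genes, in FPKM on a linear axis of its own, in the 15 libraries (points) with the group mean and SD (bars, cut at 0, n = 3). Col1a1, Col1a2, Col3a1, Col5a1 and Col5a2 are lowest in WTK and highest in IgGL, while Col27a1 is highest in WTK, at 13.7 to 17.1 FPKM.

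The fibril-core chains rose by less. Col5a1 went from 1.16, 1.06 and 1.14 FPKM in WTK to 5.05, 5.09 and 4.43 in IgGK, a 4.45-fold rise (log2 fold change 2.15 ± 0.10, edgeR adjusted p = 1.90e-08). Col5a2 went from 1.58, 1.65 and 1.73 to 5.02, 4.64 and 4.53 FPKM, a 2.93-fold rise (1.55 ± 0.08, adjusted p = 4.26e-08). The groups did not overlap for either gene. Col5a3, the chain found in a minority of type V molecules, stood at 1.95, 1.56 and 1.81 FPKM in WTK and 2.33, 2.19 and 1.75 in IgGK, so the groups overlapped (log2 fold change 0.27 ± 0.13, adjusted p = 0.0903, not called). Col27a1 went the other way: from 13.7, 17.1 and 16.6 FPKM it was down at 6.12, 6.29 and 6.50 in IgGK, a fall of 2.45-fold (log2 fold change -1.29 ± 0.09, edgeR adjusted p = 3.05e-07), and all 3 IgGK libraries lay below all WTK libraries.

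Of the 9 members with enough counts to be tested in kidney, 6 were called higher in IgGK than in WTK (edgeR, absolute log2 fold change over 0.5 and adjusted p under 0.05), where 21.7% of all tested genes were called higher. Of the 9, 1 (Col27a1) was called lower, where 15.6% of all genes were. The median log2 fold change of the 9 was 2.15, beside 0.04 over all 19593 genes tested. The last of those called higher was Col11a1, the type XI chain, with 2, 7 and 4 counts in WTK and 56, 45 and 11 in IgGK (log2 fold change 2.74 ± 0.92, edgeR adjusted p = 0.0235). It passed the low-count filter through IgGK, the group in which it was high, and was called in 2 of the 6 fits that left out a library. The call was lost without WTK replicate 1 (adjusted p = 0.0879), WTK replicate 3 (0.0791), IgGK replicate 1 (0.102) or IgGK replicate 2 (0.0558). Col24a1 overlapped between the groups (10 to 44 counts in IgGK and 27 to 38 in WTK, log2 fold change -0.56 ± 0.51, adjusted p = 0.387). Col2a1, at 0 to 11 counts in every kidney library, was not tested there.

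LepAb was compared with control IgG in injured kidney to ask whether neutralizing leptin changed the collagen response, and the major chains were lower with LepAb. Col1a1 stood at 11.9, 23.4 and 19.1 FPKM in LepK against 37.0 to 47.0 in IgGK. Col1a2 stood at 8.07, 14.8 and 12.4 FPKM in LepK against 25.1 to 27.8. Col3a1 stood at 9.01, 16.7 and 12.8 FPKM in LepK against 34.8 to 38.9. LepK replicate 1 was the lowest library for each of the 3 genes, LepK replicate 2 was the highest of its group, and no LepK library reached the IgGK range. The falls were 2.35-fold for Col1a1 (log2 fold change -1.24 ± 0.21, edgeR adjusted p = 0.00160), 2.29-fold for Col1a2 (-1.19 ± 0.16, adjusted p = 0.000536) and 2.88-fold for Col3a1 (-1.52 ± 0.19, adjusted p = 0.000359).

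Both main type V chains also fell. Col5a1, needed for fibrils to start, stood at 2.07, 2.57 and 2.47 FPKM in LepK, below all IgGK libraries (2.09-fold lower, log2 fold change -1.06 ± 0.09, edgeR adjusted p = 6.75e-05). Col5a2 stood at 2.39, 2.82 and 2.75 FPKM, also below all IgGK libraries (1.81-fold lower, -0.86 ± 0.08, adjusted p = 7.80e-05). Col5a3 stood at 2.16, 2.06 and 1.80 FPKM and lay within the IgGK range (-0.08 ± 0.13, adjusted p = 0.712). Col27a1 rose: LepK stood at 9.57, 10.6 and 8.59 FPKM, above each IgGK library and below each WTK library (1.49-fold higher than IgGK, log2 fold change 0.58 ± 0.09, edgeR adjusted p = 0.00140).

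With LepAb, 5 of the 9 tested members were called lower than in IgGK, where 5.99% of all genes were, and 1 was called higher, where 4.38% were. The LepK and IgGK libraries did not overlap for 6 of the 9, against 37.4% of all genes tested. The median log2 fold change of the 9 was -1.06, beside -0.01 over all genes. Members of low level were not called. Col11a1 had 0, 11 and 10 counts in LepK, and overlapped with IgGK (log2 fold change -2.21 ± 0.87, adjusted p = 0.0946), where the 0 counts of LepK replicate 1 allow up to 0.0957 CPM of the library total before TMM factors (3 counts, counting error only). DESeq2 (adjusted p = 0.0464) and the fit with no low-count filter (adjusted p = 0.0106) called it lower. Col24a1 had 15, 26 and 18 counts in LepK against 44, 10 and 29 in IgGK (-0.33 ± 0.53, adjusted p = 0.710). The 5 falls and the Col27a1 rise were called in each of the 6 fits that left out a library. The call of Col27a1 depended on the scaling: with total counts in place of TMM factors, the median of all genes moved to -0.19 for LepK against IgGK, Col27a1 stood at 0.40, under the fold threshold, and no member was called higher.

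**Figure D2:**
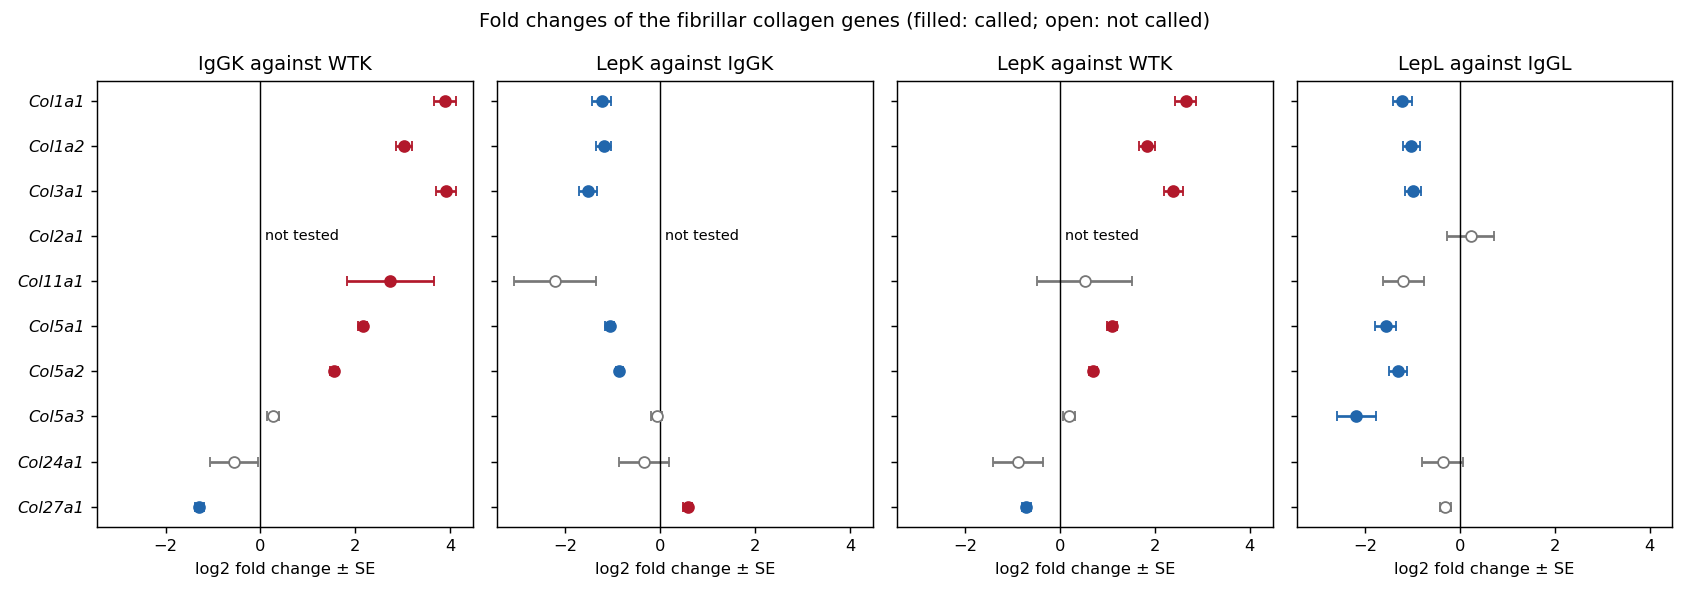
Log2 fold change ± SE from edgeR of the 10 genes in the 4 comparisons, on a shared horizontal axis (filled red, called higher; filled blue, called lower; open, not called). Col1a1, Col1a2, Col3a1, Col5a1 and Col5a2 are right of 0 in IgGK against WTK and left of 0 in both antibody comparisons, and Col27a1 has the opposite sign in kidney. LepK against IgGK and IgGK against WTK share the IgGK libraries.

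LepK was also set against WTK, to see where treated kidneys stood relative to vehicle. Of the 9, 5 were called higher in LepK, where 15.2% of all genes were, and 1 was called lower, where 7.30% were. Col1a1 was 6.26-fold higher than in WTK (log2 fold change 2.65 ± 0.22, edgeR adjusted p = 5.26e-06), Col3a1 5.23-fold (2.39 ± 0.20, adjusted p = 5.06e-06) and Col1a2 3.55-fold (1.83 ± 0.17, adjusted p = 9.11e-06). Col5a1 (1.09 ± 0.10) and Col5a2 (0.69 ± 0.08) were higher as well, with adjusted p of 9.59e-06 and 5.80e-05 in the same fit. Col27a1 was 1.64-fold lower (-0.71 ± 0.09, adjusted p = 0.000101). Col5a3 (0.19 ± 0.13), Col11a1 (0.52 ± 1.0) and Col24a1 (-0.89 ± 0.52) were not called. The 3 kidney comparisons share their groups in pairs, so their values are set side by side and not counted as separate evidence. With total counts as the scaling, the median of all genes stood at 0.29 here, Col27a1 at -0.45, and no member was called lower. Under that scaling the median for IgGK against WTK stood at 0.48, and Col5a3 was called higher there at 0.71.

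In bleomycin-injured lung all major chains stood at higher FPKM than in injured kidney, and LepAb was compared with IgG for the same question. Col1a1 stood at 225, 249 and 228 FPKM in IgGL against 121, 117 and 72.2 in LepL. Col1a2 stood at 115, 130 and 105 FPKM in IgGL against 67.8, 63.7 and 44.5 in LepL. Col3a1 stood at 156, 181 and 189 FPKM in IgGL against 109, 86.2 and 76.6 in LepL. No LepL library reached the IgGL range for these genes, and LepL replicate 3 was the lowest for each. Col1a1 fell 2.31-fold (log2 fold change -1.21 ± 0.20, edgeR adjusted p = 0.0327), Col1a2 fell 2.03-fold (-1.02 ± 0.18, adjusted p = 0.0332) and Col3a1 fell 1.98-fold (-0.99 ± 0.17, adjusted p = 0.0327).

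In lung all 3 type V chains were lower with LepAb. Col5a1 stood at 28.8, 45.2 and 45.5 FPKM in IgGL and 15.8, 14.9 and 10.8 in LepL (2.95-fold lower, log2 fold change -1.56 ± 0.22, edgeR adjusted p = 0.0327). Col5a2 stood at 45.1, 63.5 and 61.7 FPKM in IgGL and 27.8, 24.7 and 18.6 in LepL (2.45-fold lower, -1.30 ± 0.19, adjusted p = 0.0327). Col5a3 stood at 4.76, 12.6 and 17.4 FPKM in IgGL and 3.10, 2.89 and 1.90 in LepL (4.52-fold lower, -2.18 ± 0.42, adjusted p = 0.0360). IgGL replicate 1 was the lowest IgGL library for each type V chain, most of all for Col5a3, yet it still lay above the LepL libraries. Col27a1 was low in lung, at 2.08, 2.31 and 2.17 FPKM in IgGL and 1.84, 1.62 and 1.97 in LepL. Its groups did not overlap, but the difference did not pass the test (-0.30 ± 0.11, adjusted p = 0.127).

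The remaining members were not called in lung. Col11a1 had 217, 181 and 56 counts in IgGL and 65, 74 and 55 in LepL, with IgGL replicate 3 within the LepL range (log2 fold change -1.19 ± 0.43, adjusted p = 0.120). DESeq2 (adjusted p = 0.0444) and the fit with no low-count filter (adjusted p = 0.0131) called it lower. Col24a1 had 213, 167 and 61 counts in IgGL and 148, 100 and 83 in LepL (-0.36 ± 0.43, adjusted p = 0.633). Col2a1 had 26, 14 and 25 counts in IgGL and 18, 21 and 42 in LepL (0.23 ± 0.49, adjusted p = 0.800). Both overlapped between the groups.

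In lung 6 of 10 members were called lower, where 2.36% of all genes were, and the other 4 were not called, where 1.78% of all genes were called higher. The IgGL and LepL libraries did not overlap for 7 of the 10, against 33.3% of all genes. The median log2 fold change of the 10 was -1.11, beside 0.00 over 19617 genes. These calls rested on the full set of libraries. Without IgGL replicate 1, edgeR called the 6 lower, where it called 1937 of 20435 genes higher and 1602 lower. Without IgGL replicate 2, IgGL replicate 3 or LepL replicate 1, 2 or 3 it called 0 members. Over all genes those fits called 0 to 18 higher and 0 to 4 lower. In those fits 6 to 8 members were lower at an unadjusted p under 0.05. DESeq2 on all 6 libraries called 7 lower, where it called 1102 of 19617 genes lower. Over the 6 leave-out fits the log2 fold change of Col1a1 stayed between -1.33 and -1.0, of Col3a1 between -1.14 and -0.88, of Col5a1 between -1.76 and -1.41 and of Col5a3 between -2.56 and -1.75.

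The antibody effect in kidney was then compared with that in lung by the difference itself, in a fit of the 12 injured libraries. Organ, injury and day of euthanasia differed together between the 2 effects and cannot be told apart. The difference passed for 2 of 10 members, where 7.12% of all 21488 genes passed. For Col5a3 the antibody effect was 2.13 ± 0.49 higher in kidney than in lung on the log2 scale (edgeR adjusted p = 0.0256), from -0.05 in kidney and -2.18 in lung. For Col27a1 it was 0.91 ± 0.14 higher in kidney (adjusted p = 0.00700), from 0.61 in kidney and -0.30 in lung. Col27a1 passed in each of the 12 fits that left out a library and Col5a3 in 7 of 12. The Col5a3 call was lost without IgGK replicate 2, IgGK replicate 3, LepK replicate 1, IgGL replicate 2 or LepL replicate 3, with adjusted p of 0.0609 to 0.0656 there, and with the replicate number as a block (1.97, adjusted p = 0.0653). The differences for Col1a1 (0.00 ± 0.32), Col1a2 (-0.14 ± 0.27, adjusted p = 0.797), Col3a1 (-0.51 ± 0.26, adjusted p = 0.249), Col5a1 (0.53 ± 0.25, adjusted p = 0.209) and Col5a2 (0.47 ± 0.22, adjusted p = 0.205) did not pass, which does not show that the effects were alike.

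The make-up of the family shifted with these changes. As a share of the summed FPKM of the 10 genes, type XXVII made up 54.1% ± 3.81 (SD, n = 3) in WTK, 5.15% ± 0.480 in IgGK and 16.6% ± 3.90 in LepK. Type I made up 21.4% ± 1.61, 55.7% ± 1.19 and 49.7% ± 4.77 in the same groups, and type III 8.42% ± 1.43, 29.5% ± 0.931 and 21.3% ± 1.46. LepK replicate 1 was furthest toward the vehicle pattern, with type I at 44.2% and type XXVII at 21.1%. In lung, type I made up 55.2% ± 3.74 in IgGL and 54.6% ± 3.34 in LepL, type III 27.5% ± 1.40 and 30.9% ± 3.09, and type V 16.9% ± 2.87 and 13.6% ± 0.182. Type XXVII was under 1% in every lung library, and types II, XI and XXIV together made up at most 0.616% of any library. The summed FPKM was 29.3 ± 2.50 in WTK, 123 ± 8.88 in IgGK and 59.4 ± 13.9 in LepK. For lung it was 637 ± 54.5 with IgG and 295 ± 61.8 with LepAb.

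**Figure D3:**
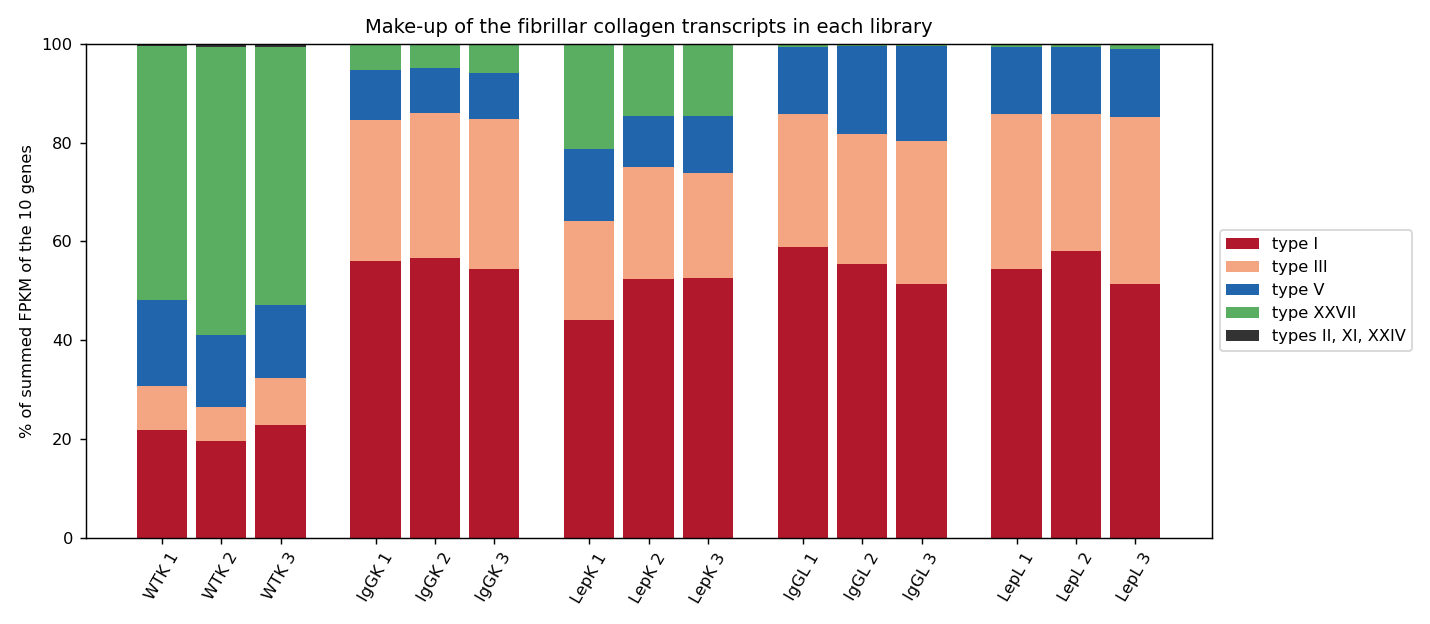
Share of each collagen type, as a percentage of the summed FPKM of the 10 genes, in each of the 15 libraries (stacked bars from 0 to 100%). Type XXVII fills 51.3 to 58.4% of the bars in WTK, 4.77 to 5.69% in IgGK and 14.3 to 21.1% in LepK, and is barely visible in lung.

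Ratios of genes within a library do not depend on the scaling between libraries. The 5 ratios in 4 comparisons gave 20 exact two-sided permutation tests of the mean log2 ratio, in which 3 against 3 libraries cannot go below p = 0.10, or 0.133 after adjustment, so none could pass. The FPKM ratio of Col1a1 to Col1a2 was 0.869 ± 0.152 in WTK, 1.58 ± 0.108 in IgGK and 1.53 ± 0.0530 in LepK. It was higher in every injured kidney than in every vehicle kidney, and IgGK and LepK overlapped (exact permutation p = 0.60). In lung it was 2.02 ± 0.134 in IgGL and 1.75 ± 0.114 in LepL, with no overlap.

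The ratio of Col3a1 to Col1a1 was 0.850 ± 0.0838 in WTK, 0.867 ± 0.0630 in IgGK and 0.712 ± 0.0437 in LepK, where all LepK libraries lay below the other kidneys. In lung it was 0.750 ± 0.0700 in IgGL and 0.899 ± 0.164 in LepL, and the groups overlapped. The ratio of Col5a2 to Col5a1 was higher with LepAb in both organs with no overlap. It was 0.976 ± 0.0591 in IgGK and 1.12 ± 0.0292 in LepK, and 1.44 ± 0.109 in IgGL and 1.71 ± 0.0531 in LepL. The ratio of Col5a3 to Col5a1 was 1.58 ± 0.107 in WTK, 0.429 ± 0.0326 in IgGK and 0.860 ± 0.165 in LepK. The kidney groups did not overlap. In lung this ratio was 0.275 ± 0.108 in IgGL and 0.189 ± 0.0113 in LepL and overlapped. Summed type V to Col1a1 was 1.60 ± 0.301 in WTK, 0.279 ± 0.0226 in IgGK and 0.414 ± 0.125 in LepK.

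**Figure D4:**
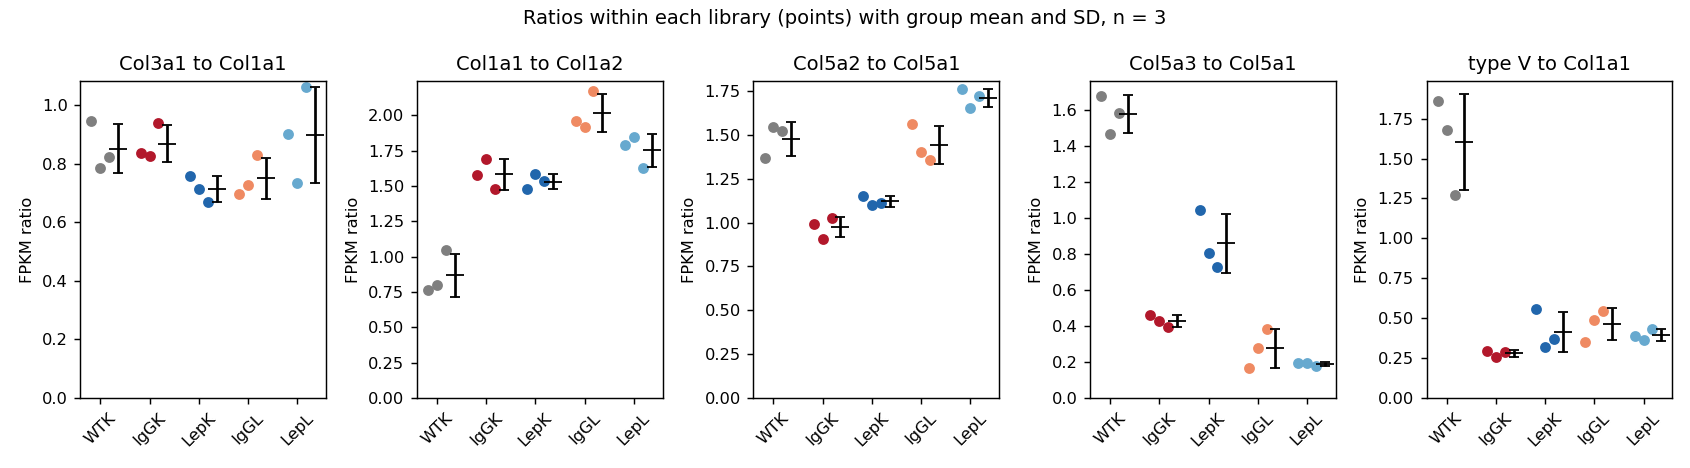
Ratio of FPKM values of the named genes within each of the 15 libraries (points), with the group mean and SD (bars, n = 3), each panel on a linear axis from 0. Col1a1 to Col1a2 is at 0.766 to 1.04 in WTK and at 1.48 to 2.17 in the injured organs, and Col5a3 to Col5a1 is at 1.47 to 1.68 in WTK and at 0.165 to 1.05 elsewhere.

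The genes that make, cross-link, bind and remove collagen were described by list. Over all genes tested, 21.7% were called higher and 15.6% lower in IgGK against WTK. The shares were 4.38% and 5.99% in LepK against IgGK, and 1.78% and 2.36% in LepL against IgGL. Cross-linking of fibrils was covered by the 5 lysyl oxidases: 5 rose in IgGK over WTK, 4 of 5 fell in LepK against IgGK and 5 of 5 fell in LepL against IgGL. Lox, which starts cross-links, was 3.48 ± 0.24 higher on the log2 scale in IgGK than in WTK (edgeR adjusted p = 1.91e-07), fell by 1.07 in LepK (adjusted p = 0.00323) and fell by 1.61 in LepL (adjusted p = 0.0350). Loxl2 (-0.91) and Loxl3 (-0.65) fell in LepK, and Loxl4 (-1.20) and Loxl3 (-1.08) in LepL. The median of the list was -0.65 in LepK and -1.08 in LepL, beside -0.01 and 0.00 over all genes. Without 1 library, 2 to 4 of the 5 were called lower in kidney and 0 to 5 in lung.

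Folding and modification of procollagen was covered by 20 genes, 19 of them in the table. In IgGK against WTK 7 of 18 tested genes rose and 4 fell. The list median there was 0.03 on the log2 scale, beside 0.04 over all genes. In LepK, where the list median was -0.11 beside -0.01 over all genes, 3 of 18 tested genes fell and 15 were not called. They were Fkbp10, a prolyl isomerase of the endoplasmic reticulum (log2 fold change -0.78), Serpinh1, the collagen chaperone HSP47 (-0.68), and P3h3, a prolyl 3-hydroxylase family member (-0.64). In LepL 5 of 19 fell, with a list median of -0.36 beside 0.00 over all genes. The falls were led by the prolyl 4-hydroxylase subunit P4ha3 (-1.56), Fkbp10 (-1.12) and the lysyl hydroxylase Plod1 (-0.79). Serpinh1 in lung stood at -0.36 ± 0.12 and was not called (adjusted p = 0.0941).

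Procollagen propeptide processing was mixed in kidney. Of 9 tested genes, the N-proteinase Adamts2 (-1.16) and the C-proteinase Bmp1 (-0.83) fell in LepK, while Mep1b (1.0) and Mep1a (0.58) rose. The meprins Mep1a and Mep1b are proteases of the tubule brush border that also cut other proteins. In lung Adamts14 (-1.49) and Adamts2 (-1.06) fell, of 7 tested. Of 12 proteins that bind fibrils, 8 fell in LepK, led by Col12a1 (-1.84), fibronectin Fn1 (-1.25) and Thbs2 (-1.15). In LepL 3 fell, led by Fn1 (-1.34) and Thbs2 (-0.87), and tenascin-X, Tnxb, rose (1.04).

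**Figure D5:**
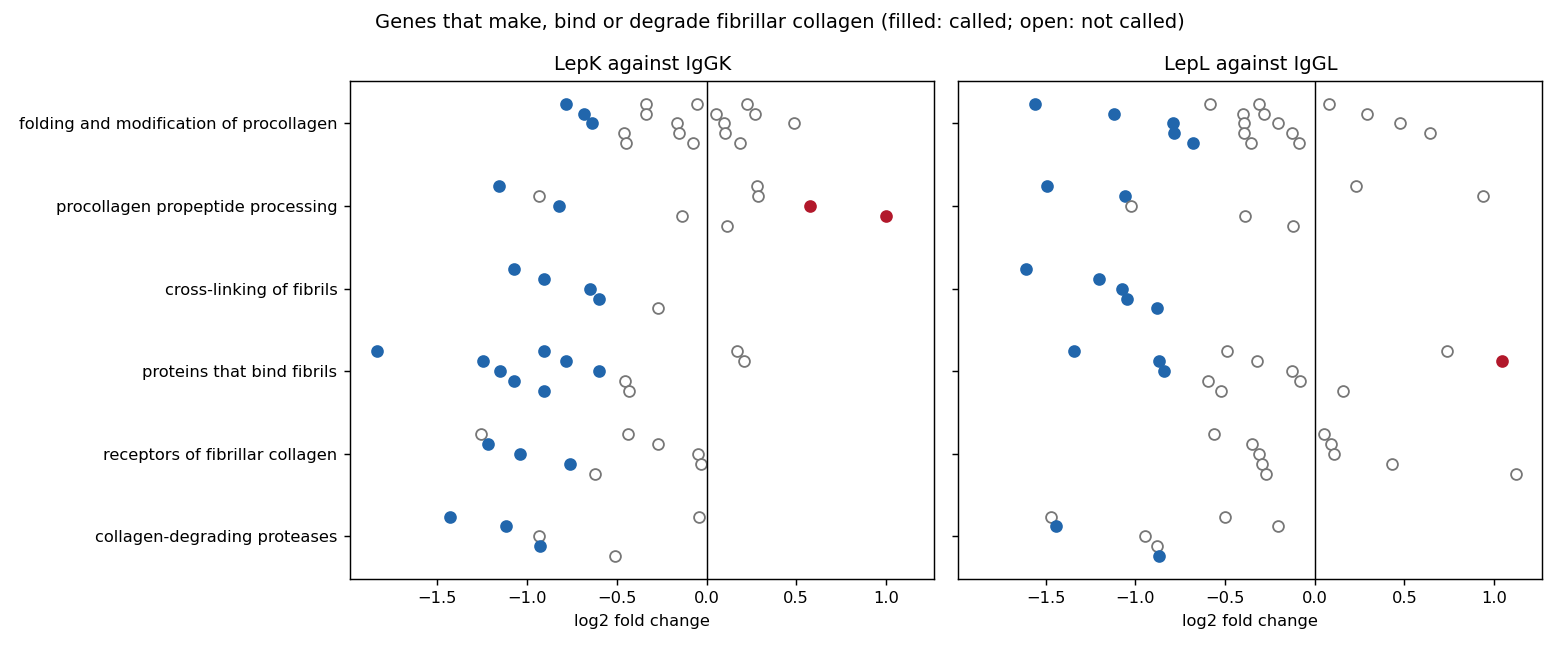
Log2 fold change from edgeR of every tested gene of the 6 collagen pathway lists, in LepK against IgGK (left) and LepL against IgGL (right), on a shared horizontal axis (filled blue, called lower; filled red, called higher; open, not called; vertical spread within a list only separates points). The lysyl oxidases lie left of 0 in both organs, and the filled red points are Mep1a and Mep1b in kidney and Tnxb in lung.

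Of 9 tested receptors of fibrillar collagen, 3 fell in LepK: the inhibitory leukocyte receptor Lair1 (-1.22), the tyrosine kinase receptor Ddr2 (-1.04) and the collagen uptake receptor Mrc2 (-0.76). In lung edgeR called 0 of 10 receptors. At an unadjusted edgeR p under 0.05, 2 were higher and 2 lower, and DESeq2 called 1 higher and 1 lower. Of 6 tested collagen-degrading proteases in kidney, 3 fell with LepAb: Mmp2 (-1.43), cathepsin K, Ctsk (-1.12), and Mmp14 (-0.93). In lung Mmp8 (-1.44) and Mmp14 (-0.87) fell, of 7 tested. Without 1 library, the calls of lower genes in kidney ranged from 3 to 5 for folding, 6 to 9 for fibril binders and 3 to 4 for degrading proteases, and stood at 3 for receptors. In lung the count reached 0 in at least 1 such fit for each of the 6 lists.

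Markers of other cell types moved with these results, and their part in them was not tested. Over all genes, 15.6% were called lower in IgGK against WTK. With LepAb, 4.38% were called higher and 5.99% lower in LepK, and 1.78% and 2.36% in LepL. In lung each call of these marker lists was lost in at least 1 fit that left out a library. Of 8 macrophage markers, 6 fell in LepK, led by Adgre1 (-1.41), Cd68 (-1.40) and C1qc (-1.20). At an unadjusted edgeR p under 0.05, 7 of the 8 were lower and 1 was higher. The summed level of the list ran from 229 to 256 CPM in WTK, 816 to 1036 in IgGK and 414 to 536 in LepK. In lung 2 of 8 fell, Mrc1 (-1.06) and C1qc (-0.81), with sums of 1609 to 2135 CPM in IgGL and 914 to 1314 in LepL. Of 8 proximal tubule markers, all 8 fell in IgGK against WTK and 6 rose in LepK against IgGK, led by the transporters Slc5a2 (1.02), Slc22a8 (0.98) and Slc34a1 (0.88). Their sums ran from 11435 to 18204 CPM in IgGK and from 24950 to 33923 in LepK. Of 7 alveolar type 2 markers, 4 rose in LepL, led by Lamp3 (1.62), Sftpc (1.40) and Sftpa1 (1.37), with sums of 7285 to 13371 CPM in IgGL and 19189 to 25862 in LepL.

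Among the cells that make fibrillar collagen, 4 of 10 fibroblast and pericyte markers fell in LepK. At an unadjusted edgeR p under 0.05, 6 were lower and 1 was higher. The largest fall was that of Cthrc1 (-2.19), a gene of activated fibroblasts, then Mfap5 (-1.58) and Dpt (-1.16). Their sums ran from 185 to 216 CPM in WTK, 422 to 457 in IgGK and 298 to 344 in LepK. In lung 3 of 10 fell, Pdgfra (-0.90), Pdgfrb (-0.88) and Cspg4 (-0.66), with sums of 1002 to 1092 CPM in IgGL and 666 to 769 in LepL. At an unadjusted edgeR p under 0.05, 5 of this list were lower and 1 was higher in LepL. Of 7 smooth muscle markers, Myh11 rose in LepK (0.70) and Acta2 fell in LepL (-0.81). The kidney sums were 86.2 to 99.6 CPM in WTK, 121 to 135 in IgGK and 127 to 141 in LepK, and those in lung 689 to 856 in IgGL and 488 to 724 in LepL. No defining marker of the macrophage, fibroblast or smooth muscle lists was at 0 in any group.

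Col2a1, Col11a1 and Col27a1 are best known from cartilage, so cartilage markers were counted. The summed level of 12 such genes was 5.61 to 8.45 CPM in WTK, 3.01 to 4.06 in IgGK and 2.55 to 5.43 in LepK. For lung it was 4.86 to 7.65 CPM with IgG and 5.82 to 6.54 with LepAb. Acan, the main cartilage proteoglycan, had no count in WTK or LepK, and Col9a1 and Ucma had none in any kidney group. Of 4 tested in kidney, 1 was called lower in both IgGK and LepK against WTK, where 15.6% and 7.30% of all genes were. It was Hapln1, a link protein of the proteoglycan matrix, named after its values were seen, at 5.50 ± 1.12 CPM (SD, n = 3) in WTK, 0.306 ± 0.0947 in IgGK and 0.848 ± 0.708 in LepK. Hapln1 fell by 4.14 on the log2 scale in IgGK against WTK (edgeR adjusted p = 2.73e-05). It fell by 2.68 in LepK against WTK (edgeR adjusted p = 0.000877), and Col27a1 also fell in both. The other 3 tested markers were not called by edgeR, and DESeq2 called 1 of the list higher in IgGK against WTK. The median log2 fold change of the 4 was 0.58 in IgGK and 0.76 in LepK against WTK. The summed level of the 12 genes, given above, was lower in every IgGK and LepK library than in every WTK library. The part of cartilage markers in the Col27a1 values was not tested. In the antibody comparisons edgeR called 0 of 4 tested in LepK and 0 of 5 in LepL. At an unadjusted edgeR p under 0.05, 1 was higher in LepK and 0 in LepL, and DESeq2 called 1 higher in LepK and 0 in LepL. Col27a1 alone stood at 217 to 269.8 CPM in WTK.

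The patterns over the 15 libraries were last set side by side as correlations of log2(CPM + 1), with the mean of each organ removed. These are descriptions across libraries that share group differences and depth. The genes most like Col1a1 among 17735 were Flna, Col1a2, Serpine2, Axl and Fn1 (Pearson r = 0.993 to 0.992), and those most like Col3a1 were Flna, Clec4a1, Ptgfrn, Col1a1 and C1qa (r = 0.994 to 0.991). Col5a1 and Col5a2 were each other's closest gene (r = 0.994). For Col5a3 the closest member was Col5a2, at r = 0.712 and place 1098 in the order. For Col27a1 it was Col24a1, at r = 0.31, and with Col3a1 it stood at r = -0.84.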

How the data were processed

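RNA was purified from whole kidney and lung, enriched for polyadenylated RNA and made into non-directional libraries. The paper's text states neither the enrichment nor whether strand was kept. The authors deposited raw read counts per gene and FPKM values for all 15 libraries, with gene lengths and GRCm39 coordinates. The columns of LepL replicate 3 carried an added suffix in their names and were matched by the sample code. The submitters' processing notes name GRCm39, mm39, DESeq2 and DESeq. The aligner and counter are not given in the sources used here. The deposited FPKM divide each count by the gene length and by 1.28 to 1.33 times the TMM-effective library size, so ratios within a library do not depend on that factor. The table also holds the authors' fold changes and p-values for their comparisons, which were not used.

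The counts were tested with edgeR 4.0.16 (R 4.3.3, quasi-likelihood, TMM factors, filterByExpr with a minimum count of 10 and minimum total of 15), in a fit of the 9 kidney libraries (19593 genes) and a fit of the 6 lung libraries (19617 genes). P-values were adjusted by Benjamini-Hochberg over all genes tested, and calls needed a log2 fold change beyond 0.5 in either direction with an adjusted p under 0.05. The difference between organs was tested as an interaction in a fit of the 12 injured libraries (21488 genes) at an adjusted p under 0.05. Ratios were tested with scipy 1.17.1 and figures drawn with matplotlib 3.10.9. The edgeR script was tested on simulated counts with known fold changes. No pair of replicates agreed within sampling noise (chi-square per gene of 7.65 to 123). Alternatives were DESeq2 1.42.0, other scalings, filters, thresholds and sets of libraries, a replicate block, and leaving out each library.

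Library totals of 25913969 to 38924788 counts make 1 count worth 0.0257 to 0.0386 CPM of the library total. Other CPM values are scaled by TMM factors set within each organ. The genes and lists were chosen with earlier results of these data known. Named were all 10 members, up to 3 called genes with the largest change per list in each antibody comparison, defining markers, and the 5 genes most like Col1a1 and Col3a1. Promoter sequences came from RefSeq.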

Additional observations from a re-analysis of the deposited data

Results flagged for a closer look

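The antibody effect of 2 fibrillar collagens differed between kidney and lung in the interaction test. For Col5a3 the kidney effect exceeded the lung effect by 2.13 ± 0.49 (SE) on the log2 scale (edgeR adjusted p = 0.0256), and 1.97 (adjusted p = 0.0653) with the replicate number as a block, which loses the call. All 3 LepL libraries were below all 3 IgGL libraries, whereas the LepK libraries lay within the IgGK range. For Col27a1 the difference was 0.91 ± 0.14 (edgeR adjusted p = 0.00700). All 3 LepK libraries were above all 3 IgGK libraries, whereas all 3 LepL libraries were below all 3 IgGL libraries. Of all genes tested, 37.4% did not overlap between LepK and IgGK, and 33.3% between LepL and IgGL. The Col27a1 difference in lung was not called (-0.30 ± 0.11, edgeR adjusted p = 0.127). Its call in kidney was lost with library size scaling. Organ, injury and day differ together between the 2 effects and cannot be told apart.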

How the results depend on the processing

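The 5 members called lower in LepK against IgGK and the 5 called higher in LepK against WTK were counted within 1.5 times of those numbers under every alternative run. The 1 member called higher in LepK against IgGK (Col27a1) went to 0 with library size scaling, with an absolute log2 fold change over 1 and with glmTreat, and the 1 called lower in LepK against WTK (Col27a1) went to 0 with the first 2 of these. The scaling shifted all genes: with library size alone, calls over all genes in LepK against IgGK went from 858 higher and 1174 lower to 408 and 2185, in IgGK against WTK from 4253 and 3057 to 7803 and 1178, and in LepK against WTK from 2984 and 1431 to 4782 and 512. The 6 called lower in lung went to 0 with glmTreat (7 at an unadjusted p under 0.05), which called 0 of all 19617 genes in either direction. They ranged from 0 to 6 without 1 library, with 6 without IgGL replicate 1, where 1602 of 20435 genes were called lower. The 2 organ differences ranged from 1 to 4 without 1 library, with 4 without IgGL replicate 1. That fit called 1853 of 22313 genes higher in kidney and 1910 lower. With all 12 libraries it was 754 and 777 of 21488 genes, and without IgGL replicate 2 it was 157 and 195 of 22323.

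The groups share replicate numbers, but same-numbered libraries did not deviate together (r = -0.0553 to 0.182), so the numbers were not read as pairs. With the replicate block, 0 members were called lower in lung (8 at an unadjusted p under 0.05). Over all 19617 genes that fit called 1 higher and 3 lower. DESeq2 without the block called 7 members lower, and 1102 genes lower over all genes. With the block 1 organ difference was called, since Col5a3 (1.97, edgeR adjusted p = 0.0653) lost its call and Col27a1 kept it. Over all 21488 genes the organ difference with the block was called higher in kidney for 554 and lower for 703. The cause of these changes was not tested.

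Among single values, the organ difference of Col1a1, 0.00 as reported, was -0.23 with library size scaling, -0.0591 with upper quartile scaling, -0.0171 with no filter, -0.0440 with a mean of at least 1 CPM, -0.00739 with the replicate block and -0.22 to 0.20 without 1 library. That of Col24a1 was -0.168 with library size scaling and -0.37 to 0.65 without 1 library, and that of Col1a2 was -0.34 to 0.0358. Without 1 library, LepK against IgGK ran from -0.18 to 0.0159 for Col5a3 and from -0.75 to 0.28 for Col24a1, and Col2a1 in lung ran from -0.10 to 0.44. None of these was called. Col2a1, at 0 to 11 counts in the kidney libraries, was too low to be tested there, and the values of Col11a1 and Col24a1 varied widely within groups.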
